A study of Homo sapiens with 6 samples.

Results

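Claudins and their tight junction partners were examined in SW403 cells, an established human colon adenocarcinoma line, with and without knockdown of IRS2, which encodes insulin receptor substrate 2, an adaptor of the insulin and IGF1 receptors. The genes are CLDN1, CLDN2, CLDN3, CLDN4, CLDN7, CLDN12, OCLN, TJP1, TJP3 and F11R, 10 of the 26490 gene symbols in the count table. They were chosen by gene family with values of the same comparison in view, with CLDN4 at the head, so their differences between the groups are given here as a description, without p-values. RNA-seq libraries were made from total RNA of 3 control cultures (genotype given as WT) and 3 IRS2 knockdown cultures. Both groups grew for 24 h in DMEM with serum and received no treatment. The descriptions of the samples carry the letters NS for control and KO for knockdown, and the titles label the libraries of each group as biological replicates. The means of lowering IRS2, and whether a group is 1 clone or several lines, are not given in the sources used here, so the spread is that between libraries seeded as triplicates and may be partly technical.

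Tight junctions seal the space between neighbouring epithelial cells near their apical side. Claudins are the multi-pass membrane proteins that form the strands, some of them tightening the barrier and others forming pores for ions or water. Occludin and the JAM proteins lie beside them, and the ZO scaffold proteins bind claudin tails through PDZ domains and tie them to the actin cytoskeleton. In colon epithelium the claudin mixture sets how leaky the layer is, and it is often altered in carcinoma.

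The promoter sequences of 4 claudins that were higher in knockdown are shown because the genes differ in where they lie and in the motif letters before their start. CLDN3 and CLDN4 are single-exon neighbours on chromosome 7. Each run holds the 250 bases before a RefSeq start, 5′ to 3′ on the gene's strand, from the RefSeq table built on GRCh38.p14. Capitals mark matches, on either strand, to the letters of AP-1 (TGANTCA), a GC box (GGGCGG), an E-box of the kind bound by SNAI and ZEB repressors (CAGGTG), a GRHL site (AACNNGTT) or a TATA box (TATAAA).
CLDN4, chr7:73830746-73830995, plus strand: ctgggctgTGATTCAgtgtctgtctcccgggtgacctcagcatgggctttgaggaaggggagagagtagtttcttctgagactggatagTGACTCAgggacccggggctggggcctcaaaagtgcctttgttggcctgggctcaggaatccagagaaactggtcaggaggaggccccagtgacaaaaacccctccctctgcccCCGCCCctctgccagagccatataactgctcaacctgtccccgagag
CLDN3, chr7:73770271-73770520, minus strand: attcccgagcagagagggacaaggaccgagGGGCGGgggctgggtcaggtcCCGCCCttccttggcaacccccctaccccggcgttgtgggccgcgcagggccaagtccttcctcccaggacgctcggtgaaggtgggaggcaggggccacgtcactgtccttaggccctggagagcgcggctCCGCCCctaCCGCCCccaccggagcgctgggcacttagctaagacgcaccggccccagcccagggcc
CLDN7, chr17:7262479-7262728, minus strand: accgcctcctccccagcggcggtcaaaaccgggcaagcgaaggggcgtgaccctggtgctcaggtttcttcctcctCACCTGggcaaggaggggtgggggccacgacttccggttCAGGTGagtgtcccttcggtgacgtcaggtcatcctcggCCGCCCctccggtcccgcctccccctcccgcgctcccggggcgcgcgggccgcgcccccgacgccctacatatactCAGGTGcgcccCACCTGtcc
CLDN12, chr7:90403211-90403460, plus strand: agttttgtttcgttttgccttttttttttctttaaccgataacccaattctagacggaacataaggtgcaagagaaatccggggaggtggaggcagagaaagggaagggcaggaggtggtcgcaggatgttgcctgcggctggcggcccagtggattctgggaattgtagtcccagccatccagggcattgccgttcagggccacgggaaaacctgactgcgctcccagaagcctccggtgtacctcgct

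No motif of the 5 searched was in all 4 sequences, and a GC box was in those of CLDN3, CLDN4 and CLDN7. CLDN4 holds AP-1 letters at 2 places, 242 and 161 bases before its start, and 1 GC box. AP-1 letters occur in 6.57% of the 35116 RefSeq windows of this length. CLDN3 holds 4 GC boxes, which 42.6% of windows have at least once. This CLDN7 window holds 4 E-boxes of the CAGGTG kind and 1 GC box, against 17.5% of windows with such an E-box. The other CLDN7 window and that of CLDN12 hold none of the letters. RefSeq windows were matched for 9 of the 10 genes, 16 windows in all. GRHL letters (2.999% of windows) and TATA letters (10.7%) were found in 0 of the 16. Of the 9 genes, 7 had a GC box, 4 the E-box and 2 AP-1 letters. Genes not called higher were among them, with a GC box in CLDN1, a GC box and E-boxes in OCLN, and AP-1 letters in CLDN2. These are letter matches only, and overlapping matches were not merged.

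Library totals ran from 11816973 to 12585013 counts in control and from 14329348 to 18114656 in knockdown, so every knockdown library was the deeper. Levels are in CPM, the count scaled to the library total. IRS2 was at 33.2 ± 1.42 CPM in the control libraries and at 12.4 ± 0.535 CPM in those of the knockdown (mean ± SD of 3 libraries, as for all such values), a log2 fold change of -1.39 ± 0.07 (SE; edgeR adjusted p 3.12e-11). The line's labelled epithelial origin was checked against 11 colon epithelial markers. KRT8, KRT18, KRT19, CDX2, EPCAM and VIL1 were expressed, while 5 markers averaged under 10 counts per library. Those were CDH1, the E-cadherin gene, at 0 to 5 counts, CDH17 and LGALS4, and KRT20 and CDX1, which had no read in any library, so several defining markers of the labelled colon epithelium were absent or nearly so. The summed colon markers were at 2537 to 2637 CPM in control and 2364 to 2456 CPM in knockdown, with KRT19 and EPCAM called lower and CDX2 higher, and the part of this in the results was not tested. Of 6 endothelial markers, all averaged under 10 counts, with PECAM1 and CDH5 at 0. Of 6 leukocyte markers, 5 averaged under 10 counts and the other, CD68, did not pass the threshold. Of 7 fibroblast markers, COL1A1 and COL3A1 were called lower and 3 averaged under 10 counts, with DCN at 0 to 3 and THY1 at 0 to 1. The summed fibroblast markers were at 8.97 to 27.6 CPM in control and 5.80 to 7.34 CPM in knockdown. Control replicate 1 gave the 27.6. Without it the control range was 8.97 to 10.4 CPM. In such bulk libraries, fewer cells of a type and less RNA per cell cannot be told apart.

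CLDN4, a claudin of tight barriers and with CLDN3 a receptor for the enterotoxin of Clostridium perfringens, was at 78.1, 72.8 and 75.7 CPM in control and 161, 151 and 162 CPM in knockdown. Every knockdown library was far above every control library, and replicates lay close together in both groups. The log2 fold change was 1.09 ± 0.04 (SE), a 2.13-fold higher level. In GENCODE on GRCh37 (hg19), the canonical CLDN4 transcript lies on chromosome 7 from 73245326 to 73247020 and has 1 exon of 1695 nt.

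CLDN3, which lies 60725 nt from CLDN4 on the opposite strand (chromosome 7, 73183327 to 73184600, 1 exon), was lower in level and also higher in knockdown. Its 3 control libraries gave 3.73, 3.90 and 4.32 CPM and its knockdown libraries 5.86, 7.73 and 7.62 CPM. The groups did not overlap, knockdown replicate 1 being the lowest of its group. The log2 fold change was 0.87 ± 0.15 (SE).

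CLDN7, a claudin found along the whole lateral membrane as well as in junctions and a binding partner of EPCAM, was at 2.62, 2.55 and 1.78 CPM in control and 4.12, 4.69 and 3.64 CPM in knockdown. Its groups did not overlap although the control libraries had a coefficient of variation of 20.2%, against 3.55% for CLDN4. The log2 fold change was 0.86 ± 0.20 (SE) from 21 to 80 counts a library. CLDN7 lies on chromosome 17 (7163222 to 7165797, 4 exons). An unnamed protein-coding gene of the annotation covers, on the same strand, 17.4% of its exon bases, and ELP5 on the opposite strand covers 2.3%, so some reads could belong to those genes.

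CLDN12, a claudin without the usual PDZ-binding end, was at 57.7, 59.4 and 60.3 CPM in control and 78.3, 78.7 and 75.9 CPM in knockdown. The libraries of each group lay close together, with coefficients of variation of 2.21% and 1.99%, and the groups did not overlap. The log2 fold change was 0.42 ± 0.04 (SE). CLDN12 lies on the same chromosome as CLDN3 and CLDN4 (90032775 to 90045268) but megabases away from both. A noncoding gene on the same strand covers 5.1% of its exon bases.

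The other claudins among the 10 genes were scarce. CLDN1, a barrier claudin, had 16 to 18 counts in control and 17 to 21 in the deeper knockdown libraries, or 1.43, 1.43 and 1.35 CPM against 1.19, 1.11 and 1.16 CPM. Its 3 knockdown values were all below the control values, with a log2 fold change of -0.26 ± 0.27 (SE), so the fit's error was as large as the difference. CLDN2, a claudin that forms cation-selective pores, was near the detection limit. It had 1 count over the 3 control libraries (0.0271 CPM, 95% exact Poisson interval 0.000685 to 0.151) and 4 over the knockdown libraries (0.0808 CPM, 0.0220 to 0.207). These intervals cover counting error only, and a difference in CLDN2 was not detectable at this depth.

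Occludin, encoded by OCLN, was at 10.0, 9.71 and 9.90 CPM in control and 8.37, 8.61 and 8.06 CPM in knockdown, with every knockdown library below every control library. The log2 fold change was -0.21 ± 0.10 (SE). OCLN has a near-identical partial copy, OCLNP1, on the same chromosome, and the handling of shared reads is not given in the sources used here, so its level is uncertain.

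F11R, the gene of junctional adhesion molecule A, was at 7.47, 12.3 and 12.4 CPM in control and 9.35, 8.50 and 8.17 CPM in knockdown. The groups overlapped because control replicate 1 lay below all other libraries. The log2 fold change was -0.28 ± 0.15 (SE) with all libraries and -0.49 ± 0.11 (SE) without control replicate 1. It was -0.16 ± 0.16 (SE) without control replicate 2 and the same without control replicate 3, so its size rests on single control libraries. An unnamed protein-coding gene of the annotation covers, on the same strand, 39.9% of the F11R exon bases, so F11R reads cannot be assigned with certainty.

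Of the ZO scaffolds, TJP1 (ZO-1) was abundant and TJP3 (ZO-3) scarce. TJP1 was at 125, 136 and 134 CPM in control and 161, 158 and 152 CPM in knockdown. The groups did not overlap, and the log2 fold change of 0.29 ± 0.04 (SE) was the smallest of the 5 genes that were higher. TJP3 had 5, 4 and 4 counts in control and 2, 3 and 4 in knockdown. Summed over each group, TJP3 was at 0.352 CPM in control (95% exact Poisson interval 0.187 to 0.601) and 0.182 CPM in knockdown (0.0831 to 0.345), intervals that overlap.

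**Figure D1:**
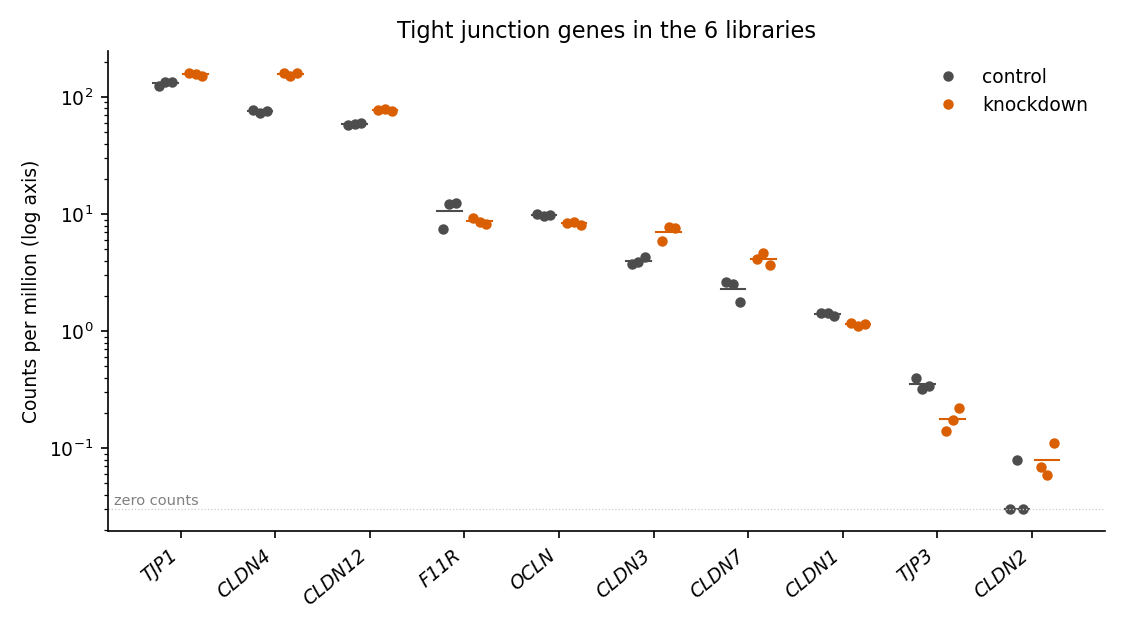
CPM (log axis) of the 10 genes in the 6 libraries, ordered by control mean, with 1 point per library and a bar at the group mean, control in grey and knockdown in orange. CLDN4 goes from 75.5 to 158 CPM, while OCLN and CLDN1 lie below their control values, F11R overlaps its own, and CLDN2 and TJP3 have few counts; libraries with no count are drawn on the dotted line.

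Of the 10 genes, 8 passed the expression filter, as did 13832 genes in all, and TJP3 and CLDN2 did not. With the quasi-likelihood test of edgeR and a threshold of 0.05 on the adjusted p, 5 were higher (CLDN3, CLDN4, CLDN7, CLDN12 and TJP1) and 0 lower (0 also at an unadjusted p under 0.05 and in DESeq2), beside 19.3% of all tested genes higher and 19.2% lower. In CPM, these 5 genes had all knockdown libraries above all control libraries, as did 19.6% of tested genes, and CLDN1, OCLN and the untested TJP3 had all of them below, as did 28.8%. Since the genes were chosen with these values known, nothing is read from their counts.

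Levels of different genes were compared as CPM per kilobase of the canonical transcript. In control, CLDN4 was first at 44.6 ± 1.58, followed by TJP1 at 18.3 ± 0.808, CLDN12 at 16.7 ± 0.369 and CLDN3 at 3.13 ± 0.235 CPM per kb (SD, n = 3 each). F11R (2.31 ± 0.608), OCLN (1.60 ± 0.0245) and CLDN7 (1.502 ± 0.303 CPM per kb) came next, and each overlapped its neighbour in this order. CLDN1 (0.408), TJP3 (0.114) and CLDN2 (0.00896 CPM per kb) were last. In knockdown CLDN4 was at 93.2 ± 3.54 CPM per kb. CLDN12 (22.0 ± 0.436) and TJP1 (21.8 ± 0.681 CPM per kb) then overlapped, and CLDN7 at 2.69 ± 0.339 stood above F11R at 1.87 ± 0.131 CPM per kb without overlap.

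The claudin family as a whole was described from a list of the 18 other human claudins. Only CLDN11, CLDN15 and CLDN23 of these passed the expression filter, 15 averaged under 10 counts, and 6 had no read at all. CLDN11, best known from myelin and from Sertoli cells of the testis, was at 43.7 ± 1.18 CPM per kb in control, where its ratio to CLDN4 per kilobase overlapped equality (CLDN4 to CLDN11 1.02 ± 0.0308), and the ratio was 1.55 ± 0.0265 in knockdown. It was at 124, 119.9 and 118 CPM in control and 167, 162 and 168 CPM in knockdown. It rose with a log2 fold change of 0.49 ± 0.04 (SE; edgeR adjusted p 4.81e-09). An unnamed same-strand gene in GENCODE covers 21.4% of its exon bases. CLDN15, a pore-forming claudin of the gut, fell from 20.3, 18.1 and 22.2 CPM to 14.5, 14.8 and 15.1 CPM (log2 fold change -0.41 ± 0.08 SE, edgeR adjusted p 0.000557). CLDN23 had a log2 fold change of 0.43 ± 0.29 (SE) at 0.922 and 1.22 CPM and did not pass the threshold (edgeR adjusted p 0.275).

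The mixture of claudin transcripts is given as a description, since CLDN4 leads it. On the per-kilobase scale, CLDN4 made up 34.9% ± 0.476 of all claudin reads in control and 47.3% ± 0.908 in knockdown (SD, n = 3 each). CLDN11 went from 34.3% ± 0.944 to 30.5% ± 0.0793, CLDN12 from 13.1% ± 0.499 to 11.2% ± 0.412 and CLDN15 from 12.9% ± 1.12 to 6.13% ± 0.140. CLDN3 held 2.45% ± 0.191 and 2.82% ± 0.440, a difference smaller than the spread in knockdown. Summed claudin CPM was 285 ± 4.87 in control and 431 ± 7.57 in knockdown, a ratio of 1.51. Without CLDN4 the sums were 209 ± 2.19 and 273 ± 1.57 CPM, a ratio of 1.30, and without CLDN11 as well the ratio was 1.21.

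**Figure D2:**
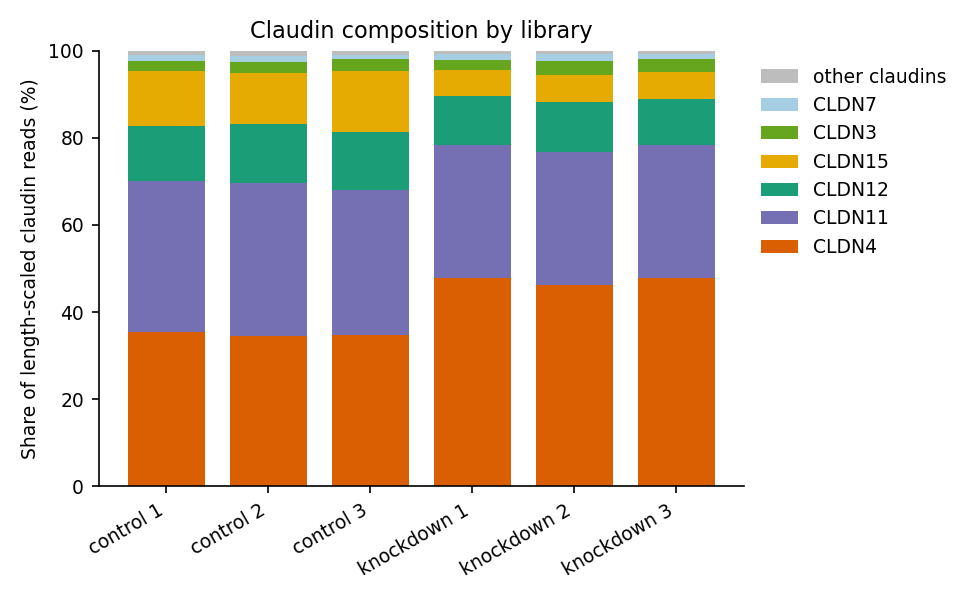
Share (%) of each claudin in all claudin reads, scaled to transcript length, with 1 stacked bar per library. CLDN4 takes a larger part of every knockdown bar (47.3% on average against 34.9% in control) and CLDN15 a smaller one (6.13% against 12.9%).

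The neighbourhood of CLDN3 and CLDN4 was examined because the pair was higher together. This choice was made after the values were seen. Within 150 kb of the pair, GENCODE on GRCh37 places 8 other protein-coding genes of the table, 7 of which were expressed highly enough to test. STX1A, a syntaxin of vesicle fusion, was higher with a log2 fold change of 0.28 ± 0.08 (SE; edgeR adjusted p 0.00803), and BUD23, an rRNA methyltransferase, with 0.11 ± 0.04 (SE; edgeR adjusted p 0.0259). METTL27, the gene next to CLDN4, had a log2 fold change of 0.19 ± 0.16 (SE; edgeR adjusted p 0.387). ABHD11, the nearest tested gene on the side of CLDN3, was at -0.04 ± 0.05 (SE; edgeR adjusted p 0.614). MLXIPL, VPS37D and DNAJC30 also did not pass the threshold, and TMEM270 had 2 counts in 1 library. The differences between CLDN3 or CLDN4 and these neighbours were not tested.

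**Figure D3:**
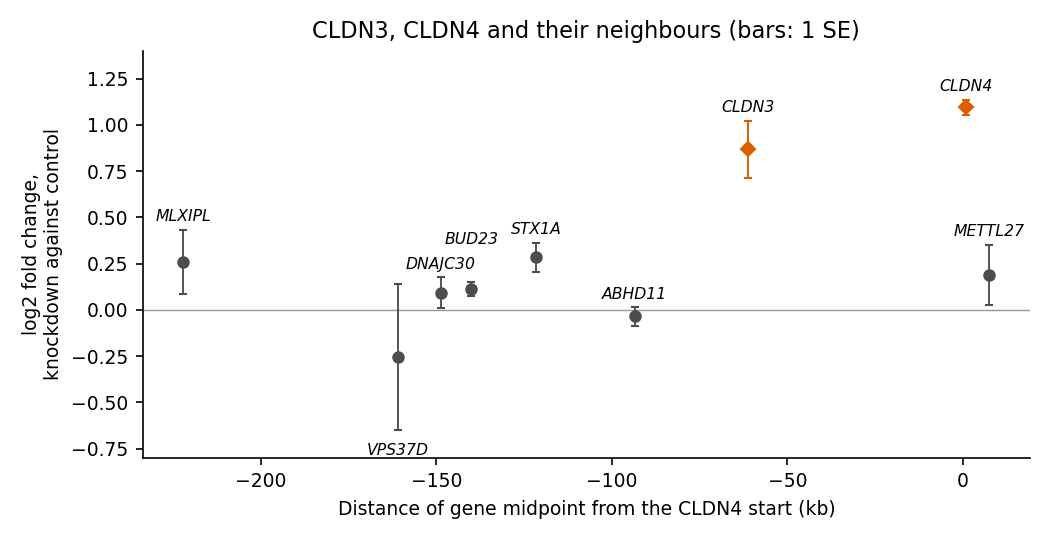
Log2 fold change (knockdown against control, bars 1 SE) of the tested genes around CLDN4 by distance of their midpoints from the CLDN4 start in kb, CLDN3 and CLDN4 as orange diamonds. CLDN3 at 0.87 and CLDN4 at 1.09 stand above the 7 neighbours, whose highest value is 0.28, that of STX1A.

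Other junction genes were taken from 5 lists written from general knowledge, 69 genes in all including the other claudins. Of the 49 tested, 18 rose and 8 fell (edgeR adjusted p under 0.05; 15 and 11 when scaled to library size alone), with a median log2 fold change of 0.09, beside -0.00391 over all tested genes. The 26 calls are 53.1% of the tested list, beside 38.5% of all tested genes. The lists were chosen with earlier results of these data known, so nothing is read from this share or from the median. Apart from MYL9 and ST14, no rise was above 0.55 (that of MARVELD2), and apart from EPCAM and CLDN15, every fall was to -0.86 (that of MAGI2) or below.

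Among the other junction membrane proteins, 6 of 10 were tested, 2 rose and 1 fell (median log2 fold change 0.10). Beside this, 19.3% of all tested genes were higher and 19.2% lower. MARVELD2, the gene of tricellulin, which seals the points where cells meet in corners, rose from 5.56, 5.25 and 5.75 CPM to 7.96, 8.32 and 7.45 CPM (log2 fold change 0.55 ± 0.13 SE, edgeR adjusted p 0.00196). CXADR, the coxsackie and adenovirus receptor, rose by 0.13 ± 0.05 (SE; edgeR adjusted p 0.0307). That call was lost in 7 of the 14 alternatives, with adjusted p-values up to 0.127. JAM3, which encodes junctional adhesion molecule C, fell from 14.2, 13.06 and 13.03 CPM to 4.26, 5.86 and 5.19 CPM. Its log2 fold change was -1.36 ± 0.12 (SE; edgeR adjusted p 4.82e-08).

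All 13 other scaffold and plaque genes were tested, and 4 rose and 5 fell (median log2 fold change 0.03). Beside this, 19.3% of all tested genes were higher and 19.2% lower. Among those that rose, CGN, the gene of cingulin, did so by 0.35 ± 0.09 (SE; edgeR adjusted p 0.00482) and MAGI1 by 0.18 ± 0.05 (SE; edgeR adjusted p 0.00424). PATJ, a polarity scaffold, was also among them. The 5 that fell did so by more. MPDZ, the multi-PDZ scaffold that binds claudin tails, fell from 6.20, 6.29 and 6.35 CPM to 2.09, 1.64 and 1.88 CPM (log2 fold change -1.72 ± 0.17 SE, edgeR adjusted p 2.58e-07). AMOT and AMOTL1, of the angiomotin family that binds YAP and PATJ, had log2 fold changes of -1.35 ± 0.08 and -1.69 ± 0.12 (SE; edgeR adjusted p 1.28e-10 and 3.76e-09), whereas AMOTL2, at 54.8 CPM in each group, did not pass the threshold (edgeR adjusted p 0.671). CGNL1, the paralogue of cingulin, was at -1.60 and MAGI2, the paralogue of MAGI1, at -0.86 (edgeR adjusted p 0.000485 and 0.0101).

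The summed fibroblast markers, given above, were also lower in knockdown than in control. Without control replicate 1, the library with the highest collagen counts, the log2 fold changes were -1.31 for JAM3, -1.73 for MPDZ, -1.45 for AMOT and -1.70 for AMOTL1, and each passed the threshold in edgeR. The same fit gave 1.12 for CLDN4. Without that library the summed fibroblast markers were still at 8.97 to 10.4 CPM in control and 5.80 to 7.34 CPM in knockdown. The part of the fibroblast markers in these differences was thus not tested by leaving it out.

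Of 14 polarity genes, 13 were tested, 5 rose and 0 fell (median log2 fold change 0.02). The 5 calls are 38.5% of the 13, the same share as over all tested genes (38.5%, with 19.3% higher and 19.2% lower). Nothing is read from these counts. At an unadjusted p under 0.05, 2 polarity genes were lower in edgeR (PARD6G and CDC42) and 1 in DESeq2, which also called 0 lower after adjustment. LLGL1, DLG1 and SCRIB, which define the basolateral domain, rose by 0.28, 0.26 and 0.13 (edgeR adjusted p 7.69e-05, 0.000175 and 0.00327), and the others were LLGL2 and PRKCI. The apical determinant CRB3 averaged under 10 counts. All 14 junction regulators were tested, 6 rose and 1 fell (median log2 fold change 0.15). MYL9, a regulatory light chain of the myosin that contracts the junctional actin belt, rose from 3.50, 2.55 and 2.96 CPM to 6.14, 6.62 and 6.24 CPM (log2 fold change 1.11 ± 0.16 SE, edgeR adjusted p 1.95e-05). ROCK2, a kinase acting on that myosin, rose by 0.27 ± 0.04 (SE; edgeR adjusted p 3.31e-05), and YBX3, the transcription factor that binds ZO-1, by 0.22 ± 0.03 (SE; edgeR adjusted p 8.11e-06). ST14, the protease matriptase, rose by 0.95 at 0.835 and 1.58 CPM (edgeR adjusted p 0.0181). The gene that fell was EPCAM (-0.21 ± 0.06 SE, edgeR adjusted p 0.00581), the partner of CLDN7.

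**Figure D4:**
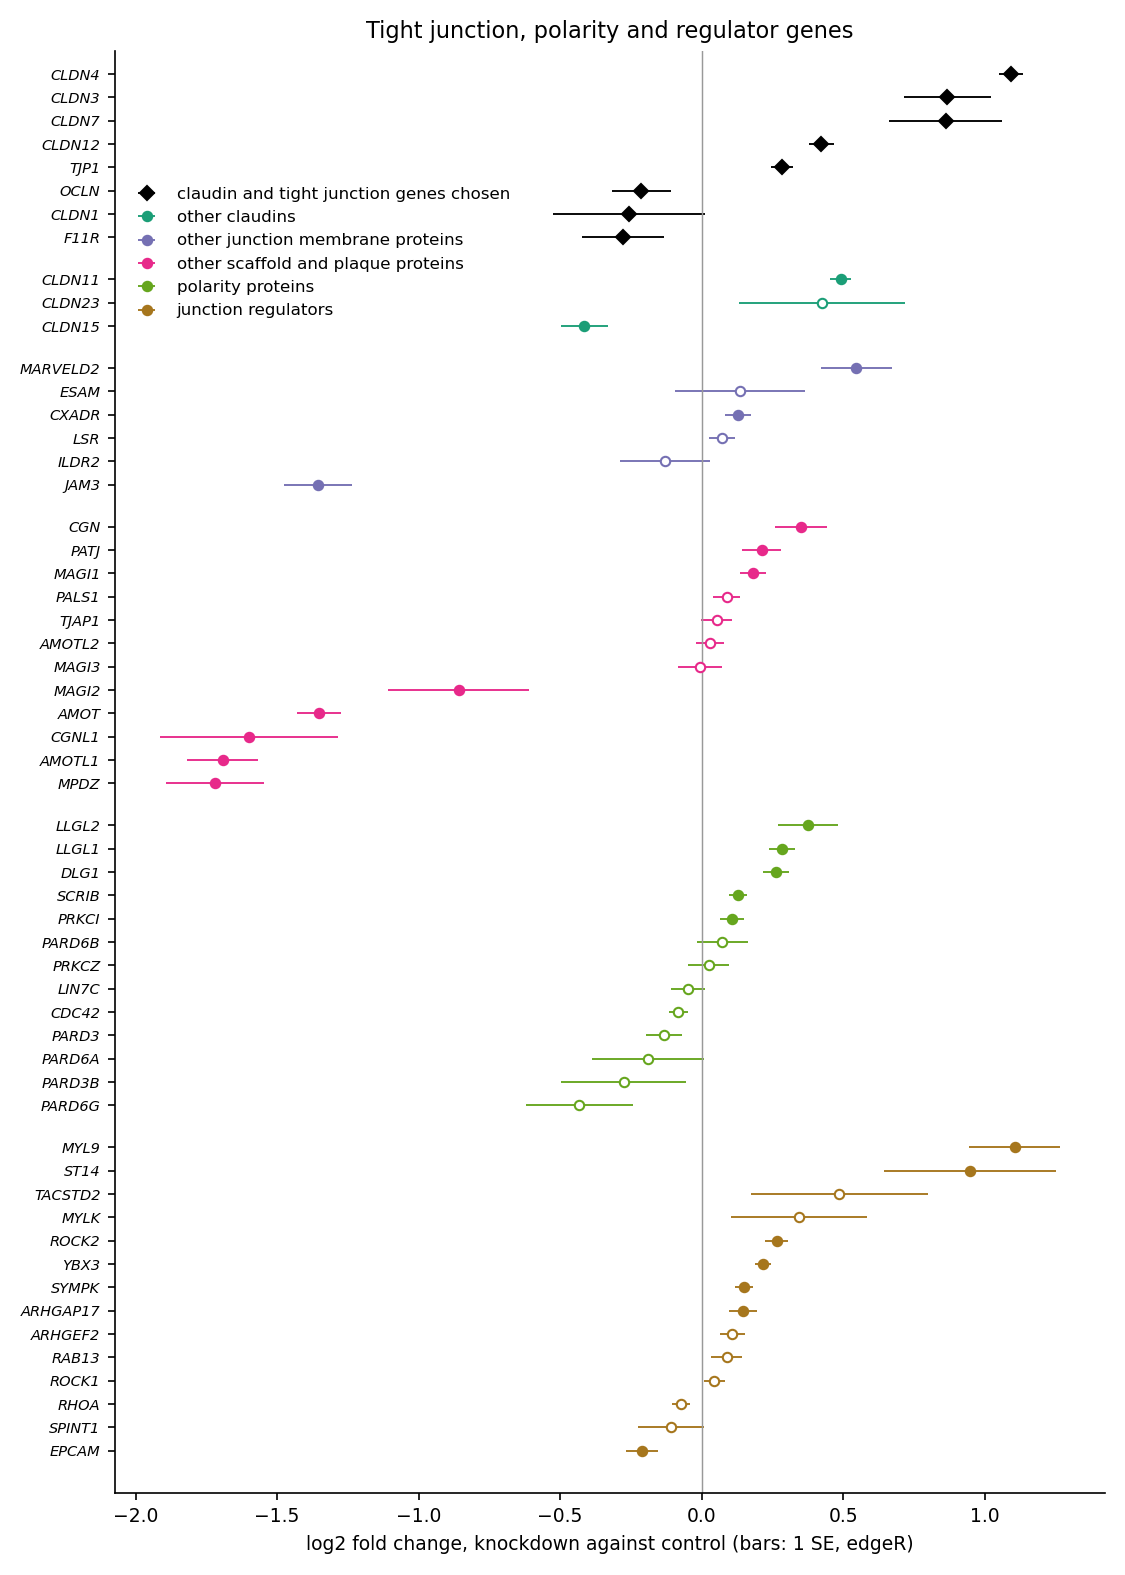
Log2 fold change (knockdown against control, bars 1 SE) of tested genes, with the chosen claudin and tight junction genes as black diamonds and the 5 other lists in colours, their circles filled where edgeR's adjusted p was under 0.05. Most filled circles lie between 0 and 0.6, while JAM3, AMOT, AMOTL1, MPDZ and CGNL1 lie below -1.3.

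Transcription factors that act on epithelial junction genes were also listed. Of 16, 10 were tested, 5 rose and 2 fell (median log2 fold change 0.25), beside 19.3% of all tested genes higher and 19.2% lower. This list was also chosen with earlier results known, so nothing is read from its counts. HNF4A, a factor of gut epithelial differentiation, had 89.6, 88.8 and 86.7 CPM in control and rose to 145, 134 and 139 CPM (0.69 ± 0.04 SE on the log2 scale, edgeR adjusted p 1.73e-10). KLF5, a crypt factor that binds GC-rich letters, rose by 0.46 ± 0.04 (SE; edgeR adjusted p 1.46e-07). Among the repressors of epithelial genes, ZEB1 rose by 0.26 ± 0.07 (SE; edgeR adjusted p 0.00629) and SNAI1 by 0.28 ± 0.09 (SE; edgeR adjusted p 0.0163), while ZEB2 fell by 1.66 and TWIST1 by 1.38 on the log2 scale (edgeR adjusted p 3.78e-05 and 0.00604). The TWIST1 call was lost without control replicate 2 (log2 fold change -1.02, edgeR adjusted p 0.0676). CDX2 was the other gene that rose. GRHL2, OVOL1 and OVOL2, regulators of epithelial identity, averaged under 10 counts, with OVOL1 at 0.

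Desmosome and gap junction genes were listed as neighbouring junction types, also with earlier results known, so nothing is read from their counts. Over all tested genes, 19.3% were higher and 19.2% lower. Of 9 desmosome genes tested, 2 rose and 4 fell (median log2 fold change -0.11). DSP, the desmoplakin gene, rose by 0.31 ± 0.05 and EVPL, the envoplakin gene, by 0.33 ± 0.05 (SE; edgeR adjusted p 0.000112 and 2.23e-05). The desmosomal cadherin DSC3 had 18.04, 19.4 and 21.0 CPM in control and fell to 6.002, 6.68 and 6.46 CPM (-1.57 ± 0.10 SE on the log2 scale, edgeR adjusted p 3.89e-10), with smaller falls of DSC2 (-0.56), JUP (-0.29) and PKP2 (-0.12). Of 5 gap junction genes tested, GJB2 and GJB1 rose by 0.66 and 0.22 (edgeR adjusted p 1.64e-07 and 0.000356), and GJA1, the connexin 43 gene, had 12.6, 13.3 and 12.1 CPM in control and fell to 3.77, 3.69 and 4.09 CPM (-1.69 ± 0.12 SE on the log2 scale, edgeR adjusted p 2.73e-09). Their median was 0.03.

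The genes whose log2 CPM followed CLDN4 most closely over the 6 libraries were SOX13, ARHGEF16, DKK4, HECTD3 and SLCO4A1, with Pearson correlations of 0.9988 to 0.9996 among 10448 genes averaging at least 100 counts. The 6 points form 2 clusters, the groups, and 15.6% of these genes had a correlation above 0.9, so the likeness is a description of the 6 libraries. Their log2 fold changes were 0.43 for SOX13, 0.77 for ARHGEF16, 1.46 for DKK4, 0.42 for HECTD3 and 0.22 for SLCO4A1.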

How the data were processed

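Total RNA of 3 control and 3 knockdown SW403 cultures was sequenced. The authors deposited a table of counts per gene symbol and a table of normalized signal, which is the counts divided by 1 constant per library (0.847 to 1.25) for the 16213 genes whose counts sum to at least 10. The submitters' processing notes name hg19, STAR 2.6.1a, Salmon and DESeq2, with no role or order. The counting tool, strand setting and annotation are not given in the sources used here.

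Counts were tested with edgeR 4.0.16 (R 4.3.3), quasi-likelihood test, TMM scaling, and Benjamini-Hochberg adjustment over all 13832 tested genes at 0.05. Genes were kept by edgeR's filterByExpr rule (minimum count 10), which asks for a CPM cutoff in about as many libraries as a group has. A gene could thus pass through either group alone. The SE of an edgeR log2 fold change is its absolute value divided by the square root of the test's F statistic. CPM values use library totals. Transcript lengths are those of GENCODE 44 lifted to GRCh37 (97.3% of tested genes). The 14 alternatives included DESeq2 1.42.0, limma 3.58.1 on log2 of the deposited normalized signal plus 1, other scalings and filters, and leaving out each library.

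The genes and lists were chosen with earlier results of these data known. Named genes were the 10 genes, IRS2, claudins averaging at least 10 counts, the 3 genes with the smallest p in each direction of every other list, and the 5 genes most like CLDN4. Others named, such as ST14, SNAI1, AMOTL2, LLGL2 and the neighbours of CLDN4, were added after their values were seen. No deposited sample column was left out. The value of 1 listed scaffold gene is not reported here, though the counts of its list include it.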

Additional observations from a re-analysis of the deposited data

How the results depend on the processing

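Of 110 log2 fold changes of the 8 tested genes under the 14 alternatives, 108 moved by less than the gene's SD of log2 CPM between libraries of a group, a wide bound for F11R, and 0 reversed. CLDN12 was at 0.39 with library size alone and OCLN at -0.26 with the length trend removed. The number of the 8 called lower ranged from 0 to 1 when each library was left out, the 1 being F11R without control replicate 1. CLDN7 was not tested at a mean of at least 50 counts, which left 4 called higher. Scaling to library size alone gave 2206 genes higher and 3198 lower, against 2676 and 2653. Of 445 values for 32 other named genes, 8 lost the threshold (CXADR 7, TWIST1 1). Further genes named above, such as ST14, SNAI1, MAGI2 and BUD23, are not among the 32, and their calls were not checked in this way. Same-numbered libraries had correlated deviations of 0.045, -0.011 and -0.098, so the numbers do not pair them, and not every library correlated best with its own number. With the replicate block, 4862 genes were called against 5329, 24 of the other junction genes against 26, and 5 of the 8. The DESeq2 Wald test called fewer, 3890 genes and 20 of the other junction genes (13 higher and 7 lower, against 18 and 8). Leaving out knockdown replicate 2 gave 4319 genes and 21 of the other junction genes (13 higher and 8 lower). CLDN1, CLDN2 and TJP3, with at most 21 counts a library, are limited by depth.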
